A study of Mus musculus with 24 samples.

Results

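The clustered replication-dependent histone genes encode the H1, H2A, H2B, H3 and H4 proteins that package newly copied DNA. They were taken from the RefSeq table of mouse assembly GRCm38.p6 as protein-coding genes on chromosomes 3, 11 and 13 with the symbols of the Hist1, Hist2 and Hist3 clusters or their current equivalents. The rule found 66 genes among the 21631 protein-coding genes of the autosomes and X. Of these, 63 matched by current symbol and 3 by an older symbol only (H2aw, H2bu2 and H4bc24, of which the last encodes an H2B despite its symbol, as its older name Hist1h2br shows). There were 6 H1, 18 H2A, 18 H2B, 12 H3 and 12 H4 genes.

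Chromatin immunoprecipitation and sequencing had been done in cultured mouse leukaemia lines grown with the cytokines IL-3, IL-6 and SCF. Each line carries a fusion of the pore protein NUP98, a rearrangement known from acute myeloid leukaemia: NUP98-HOXA9, NUP98-HOXD13, NUP98-JARID1A or NUP98-NSD1. Each was treated with the solvent DMSO or with VTP50469, which blocks the contact between menin and the histone methyltransferase MLL1, to ask what that contact contributes to their binding. The 14 lists of called regions make 7 pairs: MLL1 in all 4 lines, Menin in those with NUP98-HOXA9 and NUP98-HOXD13, and the H3 lysine 4 trimethyl mark (H3K4me3) in the NUP98-HOXA9 line. The dose in the labels was 2 µM, except 200 nM in NUP98-NSD1, although the treatment protocol names the higher dose for all. The time was 96 h, except 72 h for both MLL1 libraries of NUP98-HOXA9, so MLL1 and the other marks of that line differ in time as well as in antibody. Each condition had 1 library, so no difference within a line has a replicate check or a p-value, and whether a line is 1 clone is not given in the sources used here.

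These genes are copied many times because a cell must make a large mass of histone within the S phase of each division. Their short transcripts carry no intron in most copies and end in a stem-loop in place of a poly(A) tail, and transcription is switched on in S phase by NPAT, which is activated by cyclin E and CDK2 and gathers in the histone locus body at the gene clusters. MLL1 and menin act at the promoters of many active genes, and H3K4me3, one product of the MLL family enzymes, usually flanks the start of active genes.

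On chromosome 13 the 54 members fell into 4 blocks, divided at the 3 widest gaps of 198, 1487 and 169 kb. Block A (21715711 to 21837530) held 18 members in 122 kb, block B (22035122 to 22043658) 5, block C (23531044 to 23764412) 29 in 233 kb, and block D (23933725 to 23934913) only H2bc1 and H2ac1, the genes of the testis histones TH2B and TH2A. Chromosome 3 held 10 members in 50.3 kb (96219885 to 96270192), and chromosome 11 held H2bu2 and H2aw (58948911 to 58955192). An H2A and an H2B gene stood head to head in 10 places, with 163 to 280 bp between the starts, so that 1 called region often lay at more than 1 member. The 63 members with MLL1 in untreated NUP98-HOXA9 cells shared 54 distinct regions.

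Sequences of 6 promoters are printed because in 3 of the 4 untreated lines the called MLL1 regions took in the starts of most members. They give single examples of the member types. All come from RefSeq's GRCm38.p6 promoter table, which gave strand and sequence for 61 of the 66 members, are written 5′ to 3′ on the strand of the named gene, and end at the base before its annotated start. Capitals mark exact matches, on either strand, to CCAAT, to the TATA box letters TATAAA, or to the octamer ATTTGCAT, the sequence that POU2F1 (OCT1) recognises in H2B promoters. The H2bc15 and H2bc8 stretches fill the whole space to the head-to-head H2A partner, that of H2ac1 is from the testis pair that had no region in any list, and those of H1f2, H3c2 and H4c1 stand for the other histone types.

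H2bc15, chr13:21753913-21754075, plus strand: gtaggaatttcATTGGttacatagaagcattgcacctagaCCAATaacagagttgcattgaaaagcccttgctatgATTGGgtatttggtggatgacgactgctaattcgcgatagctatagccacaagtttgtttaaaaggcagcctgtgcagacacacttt
H2bc8, chr13:23571221-23571399, plus strand: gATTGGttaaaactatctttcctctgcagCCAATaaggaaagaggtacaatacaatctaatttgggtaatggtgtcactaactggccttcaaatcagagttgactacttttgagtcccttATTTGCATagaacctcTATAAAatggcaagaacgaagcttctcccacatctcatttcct
H2ac1, chr13:23934187-23934436, plus strand: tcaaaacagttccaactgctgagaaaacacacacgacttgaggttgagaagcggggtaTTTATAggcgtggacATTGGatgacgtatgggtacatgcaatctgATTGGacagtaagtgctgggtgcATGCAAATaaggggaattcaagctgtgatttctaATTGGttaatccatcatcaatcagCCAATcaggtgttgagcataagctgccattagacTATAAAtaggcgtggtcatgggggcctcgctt
H1f2, chr13:23738607-23738806, plus strand: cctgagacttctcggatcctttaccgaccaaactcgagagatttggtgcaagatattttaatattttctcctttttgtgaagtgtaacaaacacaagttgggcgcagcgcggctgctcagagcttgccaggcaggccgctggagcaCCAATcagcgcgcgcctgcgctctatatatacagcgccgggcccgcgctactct
H3c2, chr13:23752145-23752344, plus strand: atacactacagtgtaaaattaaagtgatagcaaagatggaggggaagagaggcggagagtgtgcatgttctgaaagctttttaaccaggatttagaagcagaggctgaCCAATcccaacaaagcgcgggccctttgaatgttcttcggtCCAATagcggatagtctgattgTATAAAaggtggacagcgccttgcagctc
H4c1, chr13:23761250-23761449, minus strand: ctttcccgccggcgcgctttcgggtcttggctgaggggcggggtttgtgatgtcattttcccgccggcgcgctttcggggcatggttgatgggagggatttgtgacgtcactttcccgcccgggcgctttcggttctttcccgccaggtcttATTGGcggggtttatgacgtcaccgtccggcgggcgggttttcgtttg

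Over the window from 250 bases before to 50 after the start, CCAAT was found on either strand in 53 of 61 members (86.9%) and in 42.7% of the 17274 promoters of the table. It was present in every H1, H2A, H2B and H3 promoter of the table and in 3 of 11 H4 promoters, of which the printed H4c1 is 1. The TATA letters were found on either strand in 35 members (57.4%), against 14.9% of all promoters. These were 4 of 6 H1, 11 of 18 H2A, 8 of 16 H2B, 4 of 10 H3 and 8 of 11 H4 promoters. The printed H1f2 and H4c1 stretches hold no such match. On the gene's own strand the TATA letters were found in 30 of 61 members. In 15 of 61 they lay between -45 and -20 bp from the start, with minus meaning upstream. The share of all promoters was not computed for either of these counts. The octamer was found in 14 members (23.0%), against 1.92% of all. These were 7 of 18 H2A and 7 of 16 H2B promoters and none of the H1, H3 or H4 promoters. The starts of the 10 head-to-head pairs are 163 to 280 bp apart, so 1 match of any motif between them can count for both genes. The promoters of the unbound H2ac1 and of H2bc8, which had a region in 10 of the 14 lists, both held all 3 motifs. A match in these letters is a description of the sequence and not a measured site, and some stretches hold close variants that were not counted. The H2bc23 and H4bc24 promoters were identical over 300 of 300 bases. The coding parts of H2A, H2B, H3 and H4 copies are also known to be nearly identical. How short reads that match several copies were handled is not given in the sources used here. The split of signal between single copies, and the number of members with a called region, are therefore uncertain.

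In untreated cells of each line MLL1 was called at most members. A gene was counted when a region lay within 1 kb of either of its ends. In DMSO this held for 63 of 66 members in NUP98-HOXA9 (95.5%, 95% Wilson interval 87.5% to 98.4%), against 45.0% of all protein-coding genes. The same count stood in NUP98-HOXD13 (63 members, 95.5%, against 45.6% of genes), and it was 57 in NUP98-JARID1A (86.4%, against 41.2%) and 45 in NUP98-NSD1 (68.2%, against 22.1%). All 4 DMSO lists had a region at 43 members, which is 65.2% of them and compares with 21.0% of all genes. At least 1 of these lists had one at 64 members (97.0%, against 48.2% of all genes). Some other lists were about as high in untreated NUP98-HOXA9 cells: MLL1 was called at 36 of 37 histone gene expression factors (97.3%), 80 of 87 cytosolic ribosomal protein genes (92.0%) and 53 of 59 DNA replication genes (89.8%), against 8 of 17 replication-independent histone genes (47.1%) and 228 of 2381 other genes under 2 kb (9.58%). The interval covers counting error over genes only, and members that share a region are not independent. The plot of the share of genes with a region sets the members beside the whole table in each list.

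**Figure D1:**
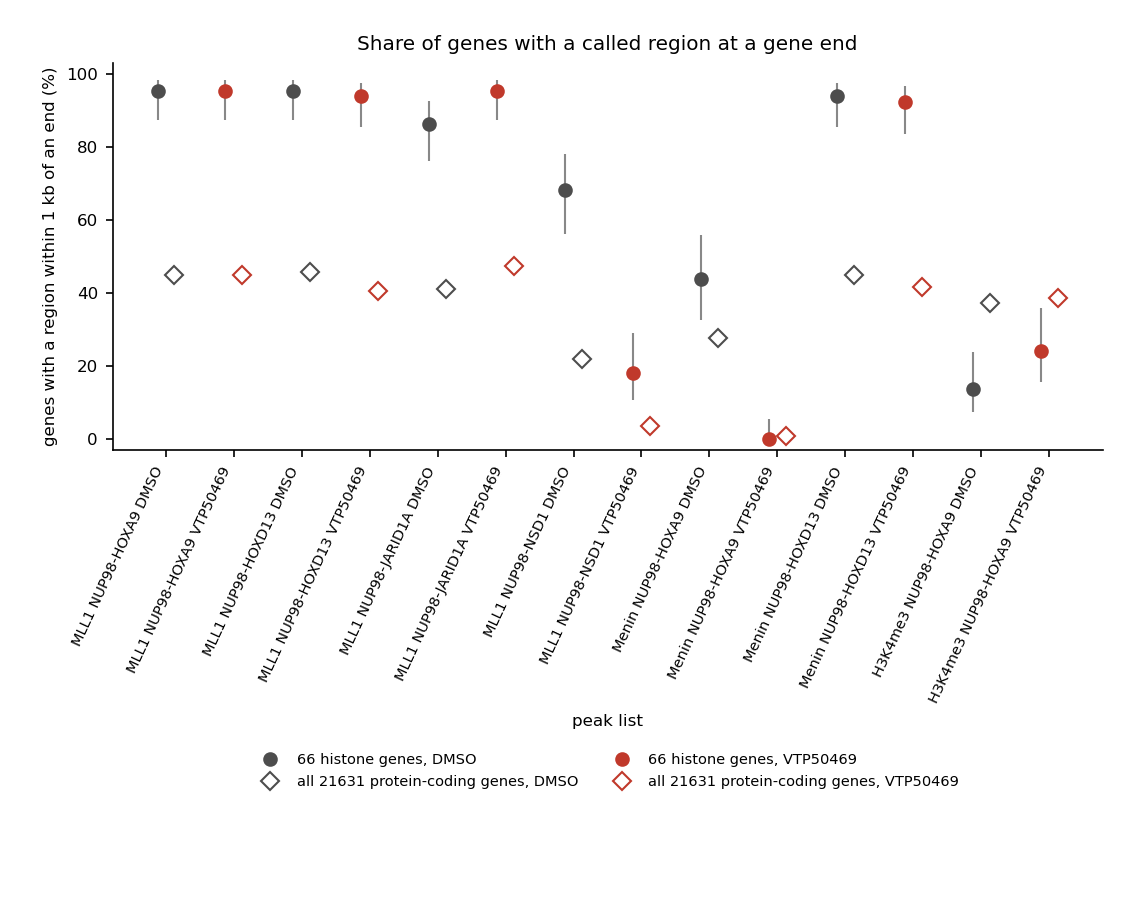
Share of genes with a called region within 1 kb of an end, in percent, for each of the 14 peak lists. Filled circles are the 66 histone genes with 95% Wilson intervals, open diamonds all 21631 protein-coding genes, grey DMSO and red VTP50469; the members lie above all genes in the MLL1 lists and below them in both H3K4me3 lists.

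Of the 66 members, 2 had no MLL1 region in any DMSO list. These were H2bc1 and H2ac1, which had no region in any of the 14 lists. H1f6, which encodes the testis linker histone H1t, had 1 region, in the MLL1 DMSO list of NUP98-HOXD13, that covered 16 bp of its span plus 1 kb on both sides. All 3 genes are known for expression in the male germ line. H2bu2, the H2B gene of the chromosome 11 pair, had a region in 3 lists. The annotated span of Trim17, a gene that is no member, begins at 58954671 on chromosome 11 and that of H2aw at 58954685, so regions there cannot be assigned to either gene. H2aw had one in 12 lists, as did H3c7, H3c15, H2ac19 and H2ac18, the highest number reached. The remaining 57 members had a region in 7 to 11 lists. The map of covered length by member and list shows these differences.

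**Figure D2:**
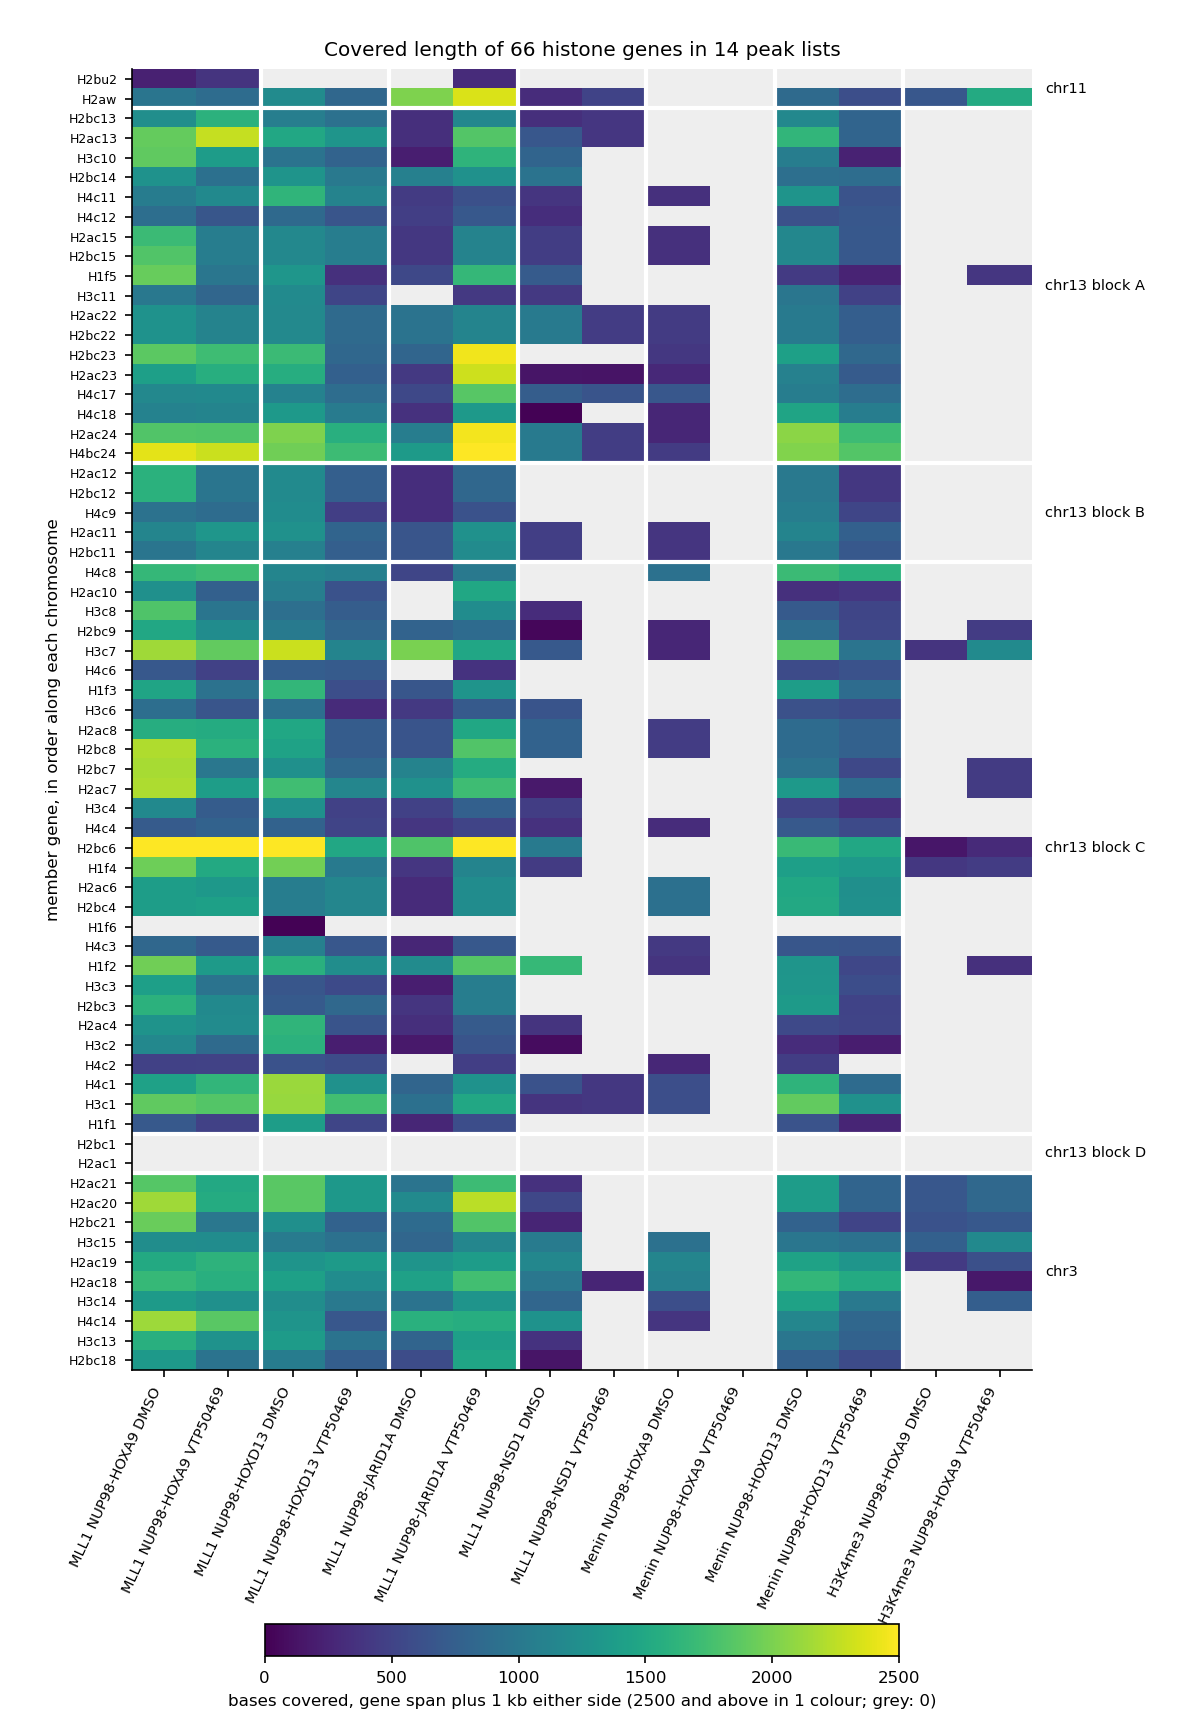
Bases of each of the 66 members (rows, in order along each chromosome) that lay in called regions in each of the 14 lists (columns), counted over the gene span plus 1 kb either side; the colour scale stops at 2500 bp and grey marks 0. The testis genes H2bc1 and H2ac1 are grey throughout, and the Menin VTP50469 list of NUP98-HOXA9 is grey for every member.

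In untreated NUP98-HOXA9 cells the strongest MLL1 regions of members lay on chromosome 3. The authors' fold enrichment of the region shared by H2ac19 (H2A) and H3c15 (H3) was 35.8 within that list, and that of the region shared by H2ac18 and H3c14 was 30.6. H3c1 had 28.9, from a region of block C that it shares with H4c1. Taking for each member its strongest region and its rank in the list, the median member stood at percentile 73.6 of fold for NUP98-HOXA9, 67.4 for NUP98-HOXD13, 32.5 for NUP98-JARID1A and 63.9 for NUP98-NSD1. In the DMSO list of NUP98-JARID1A the regions were therefore in the lower part of the list. They were also narrow there, with a median width of 467.5 bp at members and 608 bp at all gene ends, whereas in NUP98-HOXA9 the medians were 975 bp and 719 bp and in NUP98-HOXD13 925.5 bp and 708 bp.

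The strongest MLL1 regions lay close to the start of most members in NUP98-HOXA9 and NUP98-HOXD13. Positions around the 5′ end were computed for members alone, here and below, so they give no comparison with other genes that had MLL1. Of the 61 members with known strand, 95.1% had the 5′ end itself inside an MLL1 region in NUP98-HOXA9 in DMSO and 93.4% in NUP98-HOXD13. The median distance from the 5′ end to the summit of the strongest region was -68.5 bp in NUP98-HOXA9 (58 members) and -66.5 bp in NUP98-HOXD13, with minus meaning upstream, and 40 of 58 and 39 of 58 summits were within 300 bp. The 5′ end was covered at 65.6% of members in NUP98-JARID1A, with a median summit at -49.5 bp and 31 of 52 summits within 300 bp. In NUP98-NSD1 it was covered at 39.3%, with a median summit at 87 bp, quartiles of -368 and 350 bp, and 18 of 41 summits within 300 bp. At a head-to-head pair this distance falls in the space between the starts, the part printed for H2bc15 and H2bc8. At 500 bp downstream, which is near the end of most of these short genes, 67.2% of members were still covered in NUP98-HOXA9 and 52.5% in NUP98-HOXD13, but 8.20% in NUP98-JARID1A.

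**Figure D3:**
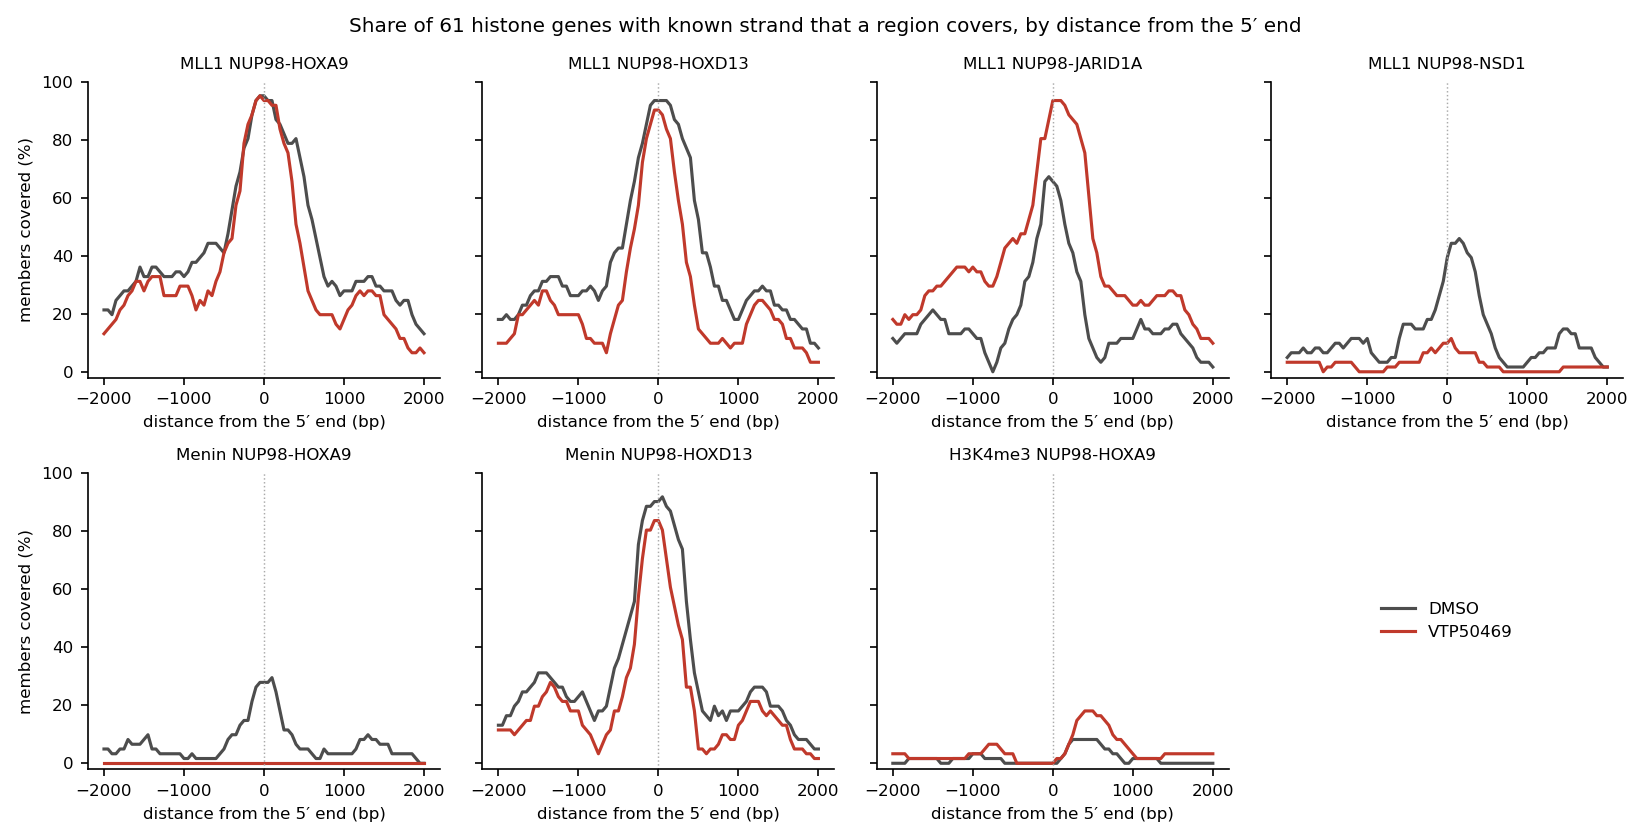
Percent of the 61 members with known strand whose position at a given distance from the 5′ end (x axis, bp, negative upstream, steps of 50 bp) lay in a called region, for each of the 7 pairs; grey is DMSO and red VTP50469. MLL1 and Menin curves that rise above 0 peak within 150 bp of the 5′ end, the NUP98-JARID1A curve stands higher after treatment, and the H3K4me3 curves peak downstream of the start.

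In NUP98-HOXA9, 72 h of 2 µM VTP50469 left MLL1 called at 63 members, as in DMSO (95.5%, against 45.0% of all genes), and over less length. No member lost its gene-end region (0 of 63, against 3.93% of all genes with a region). The covered length, which counts the bases inside regions over the gene span plus 1 kb at each end, summed over members to 96235 bp in DMSO and 78030 bp under VTP50469, which leaves 81.1%. Over all genes 76.4% was left. Counted once where members overlap, the lengths were 65817 and 52260 bp. Of the 63, 48 were covered over fewer bases and 15 over more. Of 11281 genes with coverage in DMSO, 7109 were covered over fewer bases and 4144 over more. Among the members, 1 of 63 had 50% or less left, against 12.8% of all genes. That member was H2bc7, an H2B gene of block C, with 2175 bp in DMSO and 988 bp after treatment. The longest difference was at H2bc6 (6079 and 3093 bp), whose annotated span of 37455 bases takes in regions far from its coding part. H2bc21 had 1929 and 991 bp, the linker histone gene H1f5 1917 and 982 bp, and the H3 gene H3c8 1811 and 967 bp. Coverage was longer after treatment at the pair H2ac13 (1907 and 2279 bp) and H2bc13 (1231 and 1603 bp), at H4c1 (1432 and 1646 bp) and at the pair H2ac11 (1141 and 1313 bp) and H2bc11 (969 and 1139 bp).

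Close to the starts of members, the difference lay on the downstream side, and other genes were not profiled in this way. After treatment 93.4% of members in NUP98-HOXA9 still had the 5′ end covered, and 41.0% had the position 500 bp upstream covered in both lists. At 500 bp downstream the share was 67.2% in DMSO and 36.1% after treatment.

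In NUP98-HOXD13, 96 h of the same dose gave nearly the same count of bound members and a shorter length. A gene-end region was called at 62 members after treatment (93.9%, against 40.6% of all genes), and 1 of 63 members lost one, against 12.2% of genes. The lost member was H1f6, the testis H1 gene with 16 bp of coverage. Summed coverage was 84616 bp without and 55655 bp with VTP50469 (65.8%, and 58.3% over all genes). It was less at 59 of 63 members and at 10193 of 11380 genes with coverage in DMSO. Among the members, 15 of 63 had at most 50% left, against 30.1% of genes. After H2bc6 (4225 and 1500 bp), the longest differences were at H3c2 (1607 and 209 bp), whose promoter is printed above, H3c7 (2300 and 1131 bp), H1f3 (1654 and 599 bp) and H2ac4 (1631 and 653 bp), the H2A gene next to H3c2. Only 4 members were covered over more bases after treatment, by at most 131 bp, at H2bc3 (712 and 843 bp). The 5′ end stayed covered at 90.2% of members, while the share at 500 bp downstream was 52.5% in DMSO and 14.8% after treatment, and at 500 bp upstream 42.6% and 23.0%.

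NUP98-JARID1A gave the opposite direction at the same dose and time as NUP98-HOXD13. Members with a gene-end region numbered 57 in DMSO and 63 after treatment (95.5%, against 47.4% of all genes), none was lost (0 of 57, against 1.01%) and 6 of the 9 unbound ones were gained, against 11.3% of unbound genes. DNA replication genes gained 4 of 8 and ribosomal protein genes 5 of 12 (41.7%), and the interval for the members was 35.4% to 87.9%. The gained members were H2ac10 (0 and 1490 bp), H3c8 (0 and 1214 bp), H3c11 (0 and 414 bp), H2bu2 (0 and 312 bp) and the H4 genes H4c2 (0 and 460 bp) and H4c6 (0 and 364 bp). Summed coverage was 41889 bp without and 82354 bp with VTP50469 (197%), while all genes together had 130%. It was longer at 55 of 57 members and at 7391 of 10280 genes with coverage in DMSO. It was at least 200% of the DMSO length at 26 of 57 members (45.6%, against 18.6% of genes) and at most 50% at none of 57 (against 2.55%). H2ac23 had 419 and 2306 bp, H2bc23 812 and 2451 bp, H2ac13 335 and 1829 bp, and H3c10 209 and 1627 bp, all in block A. The members with shorter coverage were H3c7 (1999 and 1478 bp) and H4c14 (1588 and 1556 bp).

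The summed length of other gene lists differed less between the lists of NUP98-JARID1A. Other protein-coding genes under 2 kb long had 142% of their DMSO length, DNA replication genes 111%, and genes of cytosolic ribosomal proteins 131%. The treated list of NUP98-JARID1A was longer than its DMSO list (24950 and 15765 regions). With the treated list cut to its 15765 regions of highest significance, members still had 175% of the DMSO length and all genes 108%. At gene ends 2 members were then gained (22.2% of those unbound, against 3.85% of genes). A further 4 were lost (7.02% of those bound, against 10.4% of genes). The median width of the regions at members was 467.5 bp without and 861.5 bp with VTP50469, and at all gene ends 608 and 716 bp. The 5′ end was covered at 65.6% of members in DMSO and at 93.4% after treatment, the share found in the treated list of NUP98-HOXA9. Block A had 251% of its DMSO length, block C 198% and chromosome 3 150%.

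In NUP98-NSD1, 200 nM of VTP50469 left few MLL1 regions anywhere. Its lists held 7113 regions in DMSO and 1036 after treatment. Members with a gene-end region numbered 45 and then 12 (18.2%, interval 10.7% to 29.1%, against 3.60% of all genes), and 33 of 45 were lost (73.3%, against 86.2% of genes). The summed length was 27585 and 4939 bp (17.9%, and 9.23% over all genes), and 39 of 46 members with any coverage had at most 50% left, against 94.1% of genes. The linker histone gene H1f2 had the longest difference (1676 and 0 bp), followed by H4c14 (1271 and 0 bp), H2ac19 (1156 and 0 bp), H3c15 (1043 and 0 bp) and H2bc6 (1034 and 0 bp). Other members lost with a high fold in DMSO were H3c14 (823 and 0 bp), H3c10 (801 and 0 bp), H3c7 (694 and 0 bp), H3c13 (363 and 0 bp), H2bc18 (142 and 0 bp) and H2bc9 (42 and 0 bp). Of the 12 with a region after treatment, 8 were in block A, 2 in block C (H4c1 with 631 and 408 bp, and H3c1 with 377 and 408 bp), 1 on chromosome 3 (H2ac18 with 995 and 259 bp) and 1 on chromosome 11 (H2aw with 317 and 502 bp).

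With the DMSO list of NUP98-NSD1 cut to its 1036 most significant regions, only 8 members had a gene-end region in it, and the summed length after treatment was 105% of that in DMSO, against 37.4% over all genes. The direction of the summed length in this line therefore rests on the length of the lists, and the dose cannot be told apart from the fusion.

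**Figure D4:**
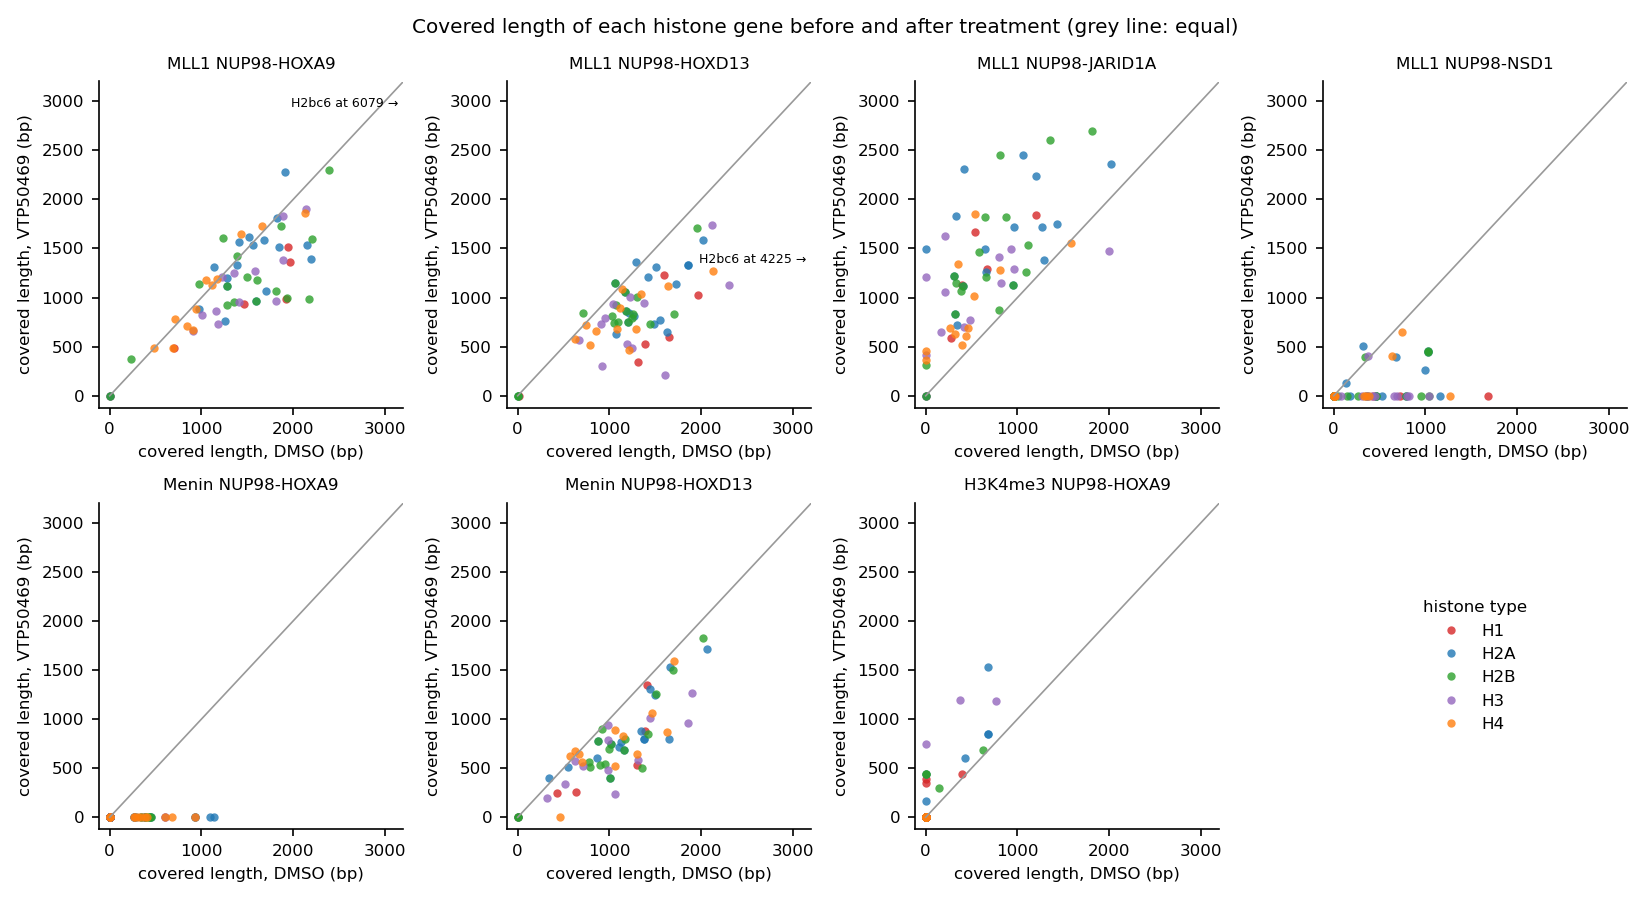
Covered length (bp) of each of the 66 members in DMSO (x axis) and after VTP50469 (y axis) for the 7 pairs, with colours for the histone type and a grey line where both are equal; H2bc6 lies beyond the axis in NUP98-HOXA9 and NUP98-HOXD13 and is named at the edge. Points fall mostly below the line for MLL1 in NUP98-HOXA9 and NUP98-HOXD13, above it in NUP98-JARID1A, and on the x axis for Menin in NUP98-HOXA9.

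The histone types differed in how much MLL1 length was left. In NUP98-HOXA9 the H4 genes had 97.1% of their DMSO length (13134 and 12756 bp), with 5 of 12 shorter. The H1 genes had 66.2% (7983 and 5285 bp), with all 5 covered genes shorter. H2B had 73.4%, H3 78.9% with 12 of 12 shorter, and H2A 88.0%. The H2B sum (30876 and 22654 bp) takes in H2bc6 (6079 and 3093 bp), whose span of 37455 bases reaches far from its coding part. In NUP98-HOXD13 the H1 genes again had the lowest value, 47.0% (7929 and 3728 bp), and the other types had 60.3% (H3) to 71.5% (H2A), with H4 at 69.6%. In NUP98-JARID1A the values by type lay between 189.5% (H3) and 212% (H1). Among H1 genes, H1f2 had 1962 and 1365 bp with NUP98-HOXA9, 1591 and 1228 bp with NUP98-HOXD13 and 1205 and 1840 bp with NUP98-JARID1A, and H1f4 had 1946 and 1516 bp, 1969 and 1030 bp, and 399 and 1130 bp. H1f1, whose window shares its strongest region in NUP98-HOXD13 with H3c1 and H4c1 (fold 28.1 in DMSO), had 1390 and 526 bp there. With no replicates, the difference between types was not tested.

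Menin was present at the members in both lines examined, with DMSO lists of different length (9050 regions for NUP98-HOXA9 and 18826 for NUP98-HOXD13). Of the members, 62 had a gene-end region in untreated NUP98-HOXD13 cells (93.9%, against 44.9% of all genes) and 61 after treatment (92.4%, against 41.6%). Of the 63 members with MLL1, 62 (98.4%) also had Menin, against 94.5% of all genes with MLL1. Of these, 1 of 62 lost its region, against 8.74% of genes, and this was the H4 gene H4c2 (457 and 0 bp). The summed length was 69248 and 47891 bp (69.2%, and 79.0% over all genes). Coverage was shorter at 59 of 62 members and at 9368 of 11376 genes with coverage in DMSO. Among the members, 12 of 62 had at most 50% left, against 13.5% of genes. H3c7 had 1852 and 960 bp, H2bc3 1358 and 505 bp, H2ac13 1647 and 801 bp, H3c10 1060 and 236 bp, and H1f2 1299 and 533 bp. Coverage was longer at H4c12 (623 and 678 bp), H2ac10 (345 and 399 bp) and H4c6 (575 and 627 bp). The strongest regions were again those of H2ac18 and H3c14 (fold 41.8 within the DMSO list) and of H2ac19 and H3c15 (38.4).

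In NUP98-HOXA9, 29 members had Menin in DMSO (43.9%, against 27.8% of all genes) and none after treatment (0 of 66, 95% Wilson interval up to 5.50%, against 0.971%). All 29 were lost, against 96.6% of genes with a region, and all 31 members with any coverage had at most 50% left, against 98.7%. Among members with MLL1, 29 of 63 (46.0%) had Menin, below the 61.5% found for all genes with MLL1. The Menin regions were weak within the list, with a median percentile of fold of 12.7. Those with the highest fold were at H2ac19 (1133 and 0 bp) and H3c15 (931 and 0 bp), H2ac18 (1092 and 0 bp) and H3c14 (602 and 0 bp), and H4c8 (931 and 0 bp). Next were H4c14 (383 and 0 bp), H4c3 (411 and 0 bp) and H3c1 (605 and 0 bp), and the H2A gene H2ac6 had 925 and 0 bp. The whole list held 403 regions after treatment. With both cut to 403 regions no member had Menin in either list, so at equal length there was nothing to compare.

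H3K4me3 (96 h) was called at few members in the line in which MLL1 (72 h) was called at 63. In NUP98-HOXA9 in DMSO 9 of 66 members had H3K4me3 at a gene end (13.6%, interval 7.34% to 23.9%), against 37.3% of all genes. Among genes with MLL1 in the same line, 9 of 63 members (14.3%, interval 7.70% to 25.0%) and 7764 of 9726 genes (79.8%) had it. Other genes under 2 kb had it in 169 of 228 cases (74.1%), DNA replication genes in 44 of 53 (83.0%) and ribosomal protein genes in 77 of 80 (96.3%). The replication-independent histone genes, which encode variants such as H2A.Z and H3.3 that are made throughout the cell cycle, had it in 8 of 8. Non-members within 50 kb of a member had it in 5 of 10 cases (interval 23.7% to 76.3%). The share was low at each level of MLL1 fold. In the lowest, middle and highest of 3 equal classes of genes by MLL1 fold, 3 of 15, 4 of 42 and 2 of 6 members had H3K4me3, and 69.3%, 81.0% and 89.2% of all genes did. The effect of how reads from nearly identical copies were handled on the H3K4me3 calls at members was not tested.

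**Figure D5:**
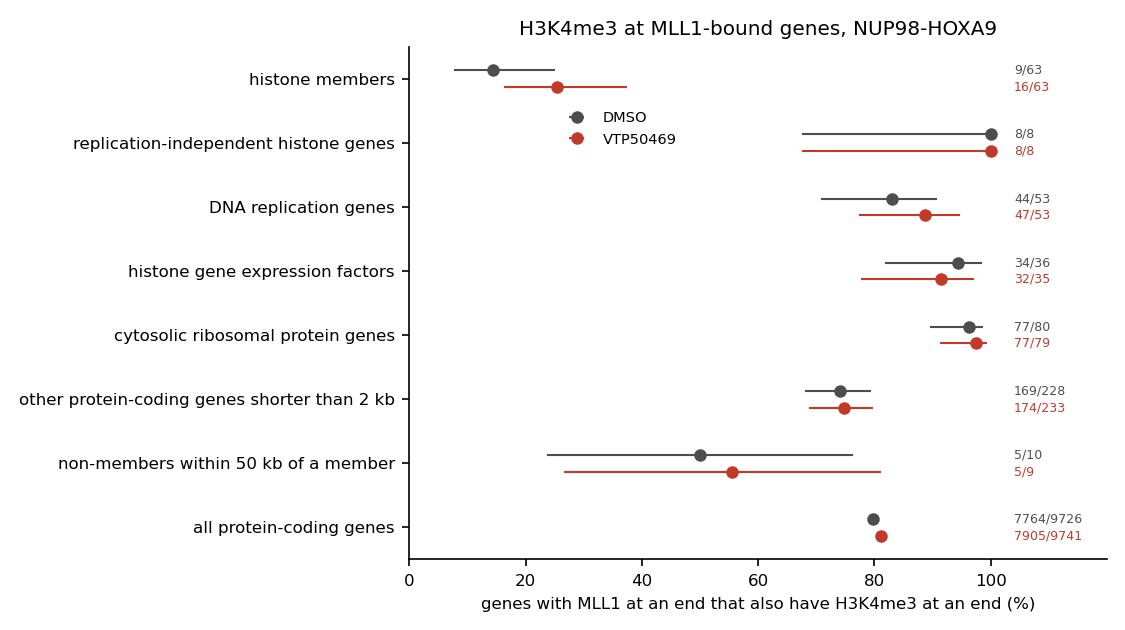
Percent of genes with MLL1 at a gene end in NUP98-HOXA9 that also had H3K4me3 at a gene end, with 95% Wilson intervals, for the histone members and 7 other gene lists in DMSO (grey) and after VTP50469 (red); the numbers at the right are genes with H3K4me3 of genes with MLL1. The members lie at 9 of 63 and 16 of 63, the non-members within 50 kb at 5 of 10 and 5 of 9, and each remaining list has a share above 70%.

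The 9 members with H3K4me3 in DMSO shared 6 distinct regions and were spread unevenly. On chromosome 3 there were 5 of 10, namely H2ac21 and H2ac20 (681 bp each), H2bc21 (627 bp), H3c15 (762 bp) and H2ac19 (425 bp). Block C held 3 of 29, namely H3c7 (374 bp), H1f4 (401 bp) and H2bc6 (150 bp), chromosome 11 held H2aw (678 bp, the same length as at Trim17 beside it), and blocks A and B held none of 23. No H4 gene had H3K4me3 in either list. The regions were weak and narrow, with a median percentile of fold of 8.17 within the list and a median width of 413 bp, against 737 bp at all gene ends. None of the 61 members with known strand had its 5′ end inside an H3K4me3 region, and the share peaked at 8.20% from 250 bp downstream on. The median summit lay 283 bp downstream of the 5′ end in the 7 marked members with strand.

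After 96 h of VTP50469, 16 members had H3K4me3 (24.2%, against 38.7% of all genes), and they shared 12 distinct regions. None of 9 was lost, against 3.95% of genes, and 7 of 57 unmarked members gained a region, against 4.64% of genes. DNA replication genes gained 5 of 14 (35.7%) and ribosomal protein genes 2 of 10 (20.0%), and the interval for the members was 6.08% to 23.3%. The gained members were H3c14 (0 and 744 bp), H2bc9 (0 and 442 bp), the head-to-head pair H2ac7 and H2bc7 (0 and 437 bp each), H1f5 (0 and 393 bp), H1f2 (0 and 345 bp) and H2ac18 (0 and 164 bp). The summed length was 4779 and 10593 bp (222%, and 108% over all genes). All 9 members marked in DMSO were covered over more bases, as were 5036 of 8995 genes with coverage in DMSO. At least 200% was reached by 3 of 9 members, against 3.38% of genes. These were H2aw (678 and 1529 bp, as at Trim17), H3c7 (374 and 1194 bp) and H2bc6 (150 and 302 bp). The strongest region at H2bc6 had the same fold as that at H1f4 in each list (4.007 in DMSO and 4.998 after treatment). Without the margin of 1 kb, 1 member had at least 200%. H3c15 had 762 and 1184 bp, H2ac19 425 and 606 bp, and H1f4 401 and 440 bp. Both lists were of nearly equal length (9443 and 9567 regions), and cutting the longer one left the percentage as it was. Among regions with a −log10 q of at least 5, 3 members had H3K4me3 in DMSO and 12 after treatment. In the same line MLL1 covered 81.1% of its DMSO length over the members and Menin none. After treatment 16 of 63 members with MLL1 (25.4%) had H3K4me3, against 81.2% of all genes with MLL1.

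Genes of the histone supply pathway outside the clusters mostly carried both MLL1 and H3K4me3. A list of 37 factors that transcribe, process or deposit histones had MLL1 at 36 genes in NUP98-HOXA9 in DMSO, and 34 of these 36 had H3K4me3. Npat is the gene of the S phase activator of histone transcription. Its MLL1 length was 1870 and 776 bp with NUP98-HOXA9, 2154 and 774 bp with NUP98-HOXD13, and 2379 and 1340 bp with NUP98-JARID1A. In the last of these lines, where 55 members were longer, Npat was shorter after treatment. Of the 37 factors, 28 were longer and 9 shorter there. Slbp, the gene of the protein that binds the stem-loop of histone transcripts, had 1274 and 1438, 1107 and 1084, and 1099 and 1134 bp in the same lines, and Hinfp, the gene of an activator of H4 transcription, 706 and 742, 753 and 717, and 453 and 904 bp. The summed MLL1 length of the factors was 82.8%, 65.7% and 118% of DMSO in NUP98-HOXA9, NUP98-HOXD13 and NUP98-JARID1A, and that of the replication-independent histone genes 66.1%, 60.0% and 115%. The nearest genes that are not members, 24 genes within 50 kb, had MLL1 at 10 (41.7%) in NUP98-HOXA9 in DMSO.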

How the data were processed

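The deposited lists hold 1 library each, and the 10 input libraries of the series were not analysed here. Per the submitters' processing notes the build was mm10 and the tools were MACS2, bedtools, SAMtools, Picard 2.9.4, STAR 2.7.5a and bcl2fastq 2.20.0.422. No settings, and no control library for a list, are given in the sources used here. Each row gives coordinates and a summit, and the authors' fold enrichment (a ratio), a score, and −log10 p and −log10 q values as deposited. The fold was used to rank regions within 1 list, and the deposited −log10 q, whose lowest value was between 2.00 and 2.07 in every list, to shorten lists. The deposited score went unused. The lists do not show read depth, and the number of called regions moves with it.

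Genes, names and promoters came from RefSeq GRCm38.p6. A region counted at a gene when it shared 1 bp with a window of 1 kb either side of an end, and a gene end was lost or gained when only the DMSO or only the VTP50469 list had one. Scripts ran in Python 3.11.15 with numpy 2.4.6, pandas 2.3.3 and scipy 1.17.1 and were tested on simulated lists. No test between conditions was made: each line had 1 library per condition, and no p was computed for values summed over members chosen with results known. A count or a summed length was called moved when it differed by more than 1.5 times.

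Members, gene lists and rules were chosen with earlier results of these data known. The members named are, per pair, those lost or gained (the 8 of highest fold where more), the 5 longest falls and rises, the 5 of highest DMSO fold, and those with no region in any list; others are named to complete a group or because their promoter is printed, and were chosen after their values were seen. The 3 members with older symbols, the division of chromosome 13, the 3 classes by fold, and the positions around the 5′ end were also decided after the files were seen. A planned comparison of protein sequences was not run.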

Additional observations from a re-analysis of the deposited data

Results flagged for a closer look

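The summed MLL1 length over the members went in opposite directions between lines under the same contrast. It was 81.1% of the DMSO length in NUP98-HOXA9, 65.8% in NUP98-HOXD13 and 17.9% in NUP98-NSD1 (200 nM), and 197% in NUP98-JARID1A. In NUP98-HOXD13 59 of 63 members were shorter, as were 10193 of 11380 genes with coverage in DMSO. In NUP98-JARID1A 55 of 57 members were longer, as were 7391 of 10280 genes. With 1 library per condition the difference between lines was not tested. The number of called regions moved with it, from 20154 to 14744 in NUP98-HOXD13 and from 15765 to 24950 in NUP98-JARID1A. In lists of equal length the values were 82.2%, 67.8%, 105% and 175%, in the order NUP98-HOXA9, NUP98-HOXD13, NUP98-NSD1 and NUP98-JARID1A.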

How the results depend on the processing

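Of 235 recomputed values, 208 stayed on their side of the thresholds, 26 moved by more than 1.5 times, and 1 reversed. Counting members by current symbol alone, an alternative chosen after seeing the data, moved none of 38. In lists of equal length, the NUP98-NSD1 summed length reversed to 105%, its bound members in DMSO were 8, lost 5 and at most 50% 6. There NUP98-HOXD13 lost 0, NUP98-JARID1A lost 4, gained 2 and had 4 at most 50%, and Menin in NUP98-HOXA9 had 0 bound, 0 lost and 0 at most 50%, so no summed percentage could be given. With −log10 q of at least 5, NUP98-HOXA9 had 2 at most 50%, NUP98-HOXD13 lost 0, NUP98-JARID1A gained 13, NUP98-NSD1 had 7 bound after treatment, Menin in NUP98-HOXD13 lost 2, and H3K4me3 had 3 bound in DMSO, 1 at least 200% and a summed length of 565%. Counting by summit, NUP98-HOXA9 lost 1, NUP98-JARID1A lost 8 and Menin in NUP98-HOXD13 lost 3. In NUP98-HOXD13 the 2 kb window gave 0 lost for MLL1, and the 500 bp window gave 3 lost for Menin. Without the margin, 7 (NUP98-HOXA9) and 21 (Menin in NUP98-HOXD13) members had at most 50%, and 1 had at least 200% of H3K4me3. The cause of these moves was not tested. A region missing from a list may lie below the limit on q, and depth is unknown. Each pair set 1 DMSO library beside 1 VTP50469 library of the same line and antibody, without replicates. A test of treatment paired by line was not made.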
